A study of Arabidopsis thaliana with 21 samples.

Results

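M17 (AT2G41260), AtLEA4-1 (AT1G32560), LEA4-5 (AT5G06760), COR15A (AT2G42540) and COR47 (AT1G20440) are 5 Arabidopsis thaliana genes whose transcripts are linked to drying or cold. Each was measured by 1 probe set that the probe annotation assigned to that gene alone, and these 5 were the members among 22746 probe sets tested. Affymetrix arrays were run on RNA from the hypocotyl (the lowest stem segment, under the cotyledons) of 2-week-old plants, with 3 arrays in each of 7 groups and 21 in all. Wild-type (Col-0) plants were decapitated and given the auxin IAA at 3 mg per mL, or decapitated only, or given NPA, which blocks polar auxin transport, also at 3 mg per mL, or left intact. The remaining groups were the highly branched mutants max1, max2 and max3 without IAA or NPA. MAX1 and MAX3 act in strigolactone synthesis and MAX2 in strigolactone and karrikin response. All 7 groups, intact plants included, received the carrier lanolin with ethanol. The IAA plants are thus decapitated plants too. Tissue was collected after 24 h, and 1 array held RNA pooled from 120 to 150 hypocotyls.

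Late embryogenesis abundant (LEA) proteins are hydrophilic, mostly unstructured proteins that accumulate as seeds dry and, in leaves and stems, under drought, cold, salt or abscisic acid (ABA). They are thought to shield membranes and enzymes while water is lost. M17 was described as a seed LEA gene. AtLEA4-1 and LEA4-5 belong to the group 4 LEA proteins, which protect enzymes from inactivation in vitro. COR15A is a chloroplast protein that stabilises membranes during freezing, and COR47 is an acidic dehydrin. COR genes are classic targets of the CBF cold-response factors, and many LEA genes are targets of ABA-regulated bZIP factors.

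Values are on the deposited log2 scale. Array medians lay between 6.11 and 6.35, and values pile up near background below 3.5, where each array had 35.7% to 36.4% of its probe sets. Differences are log2 differences between group means, ± is the SE of the limma model of all 21 arrays, and a gene is called higher or lower where the Benjamini-Hochberg adjusted p of that model, taken over all 22746 probe sets, is below 0.05. Each hypocotyl pool mixes cell types, so that fewer cells of a type and less RNA per cell cannot be told apart. Comparisons below that use the same arrays, such as those against the 3 intact arrays, are not independent of each other.

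M17 was near background in intact plants and high in decapitated and in NPA-treated plants. It read 7.93, 8.19 and 7.39 in the 3 decapitated arrays and 6.27, 8.14 and 7.38 in the 3 NPA arrays, against 2.34, 2.36 and 2.49 in the intact arrays. The lowest array of either treatment lay well above the highest intact array. M17 was higher by 5.44 ± 0.31 in decapitated than in intact plants (limma adjusted p = 5.2e-09), the 24th highest difference of 22746. It was higher by 4.87 ± 0.31 with NPA than in intact plants (adjusted p = 1.6e-08), the 40th highest. Because the intact values lie near background, these differences do not give the ratio of transcript amounts.

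In decapitated plants given IAA, M17 read 2.34, 2.31 and 2.36, close to the intact values. IAA against decapitation gave -5.50 ± 0.31 (adjusted p = 4.3e-09), the 15th lowest difference of all probe sets, and IAA against intact gave -0.06 ± 0.31 (95% interval -0.71 to 0.60). NPA against decapitation gave -0.58 ± 0.31 (95% interval -1.23 to 0.07), not called (adjusted p = 0.456), and the ranges overlapped. Without NPA replicate 2 that difference was -1.01 and called (adjusted p = 0.0486). The 3 NPA arrays spread more (SD 0.94) than the 3 decapitated arrays (SD 0.41), and NPA replicate 1 was the lowest of the 6.

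In the max mutants M17 stayed near background. Its values ran from 2.28 to 2.34 in max1, from 2.31 to 2.36 in max2 and from 2.28 to 2.33 in max3, against 2.34 to 2.49 in intact plants. None of the 3 mutants was called against intact, with differences of -0.09, -0.06 and -0.09 ± 0.31. The mean of the 3 mutants lay 5.52 ± 0.25 below the decapitated plants on the log2 scale (adjusted p = 1.8e-10). In order of group mean M17 was highest in decapitated plants, then in NPA plants, and the other 5 groups followed within 2.31 to 2.40, each overlapping the next.

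**Figure D1:**
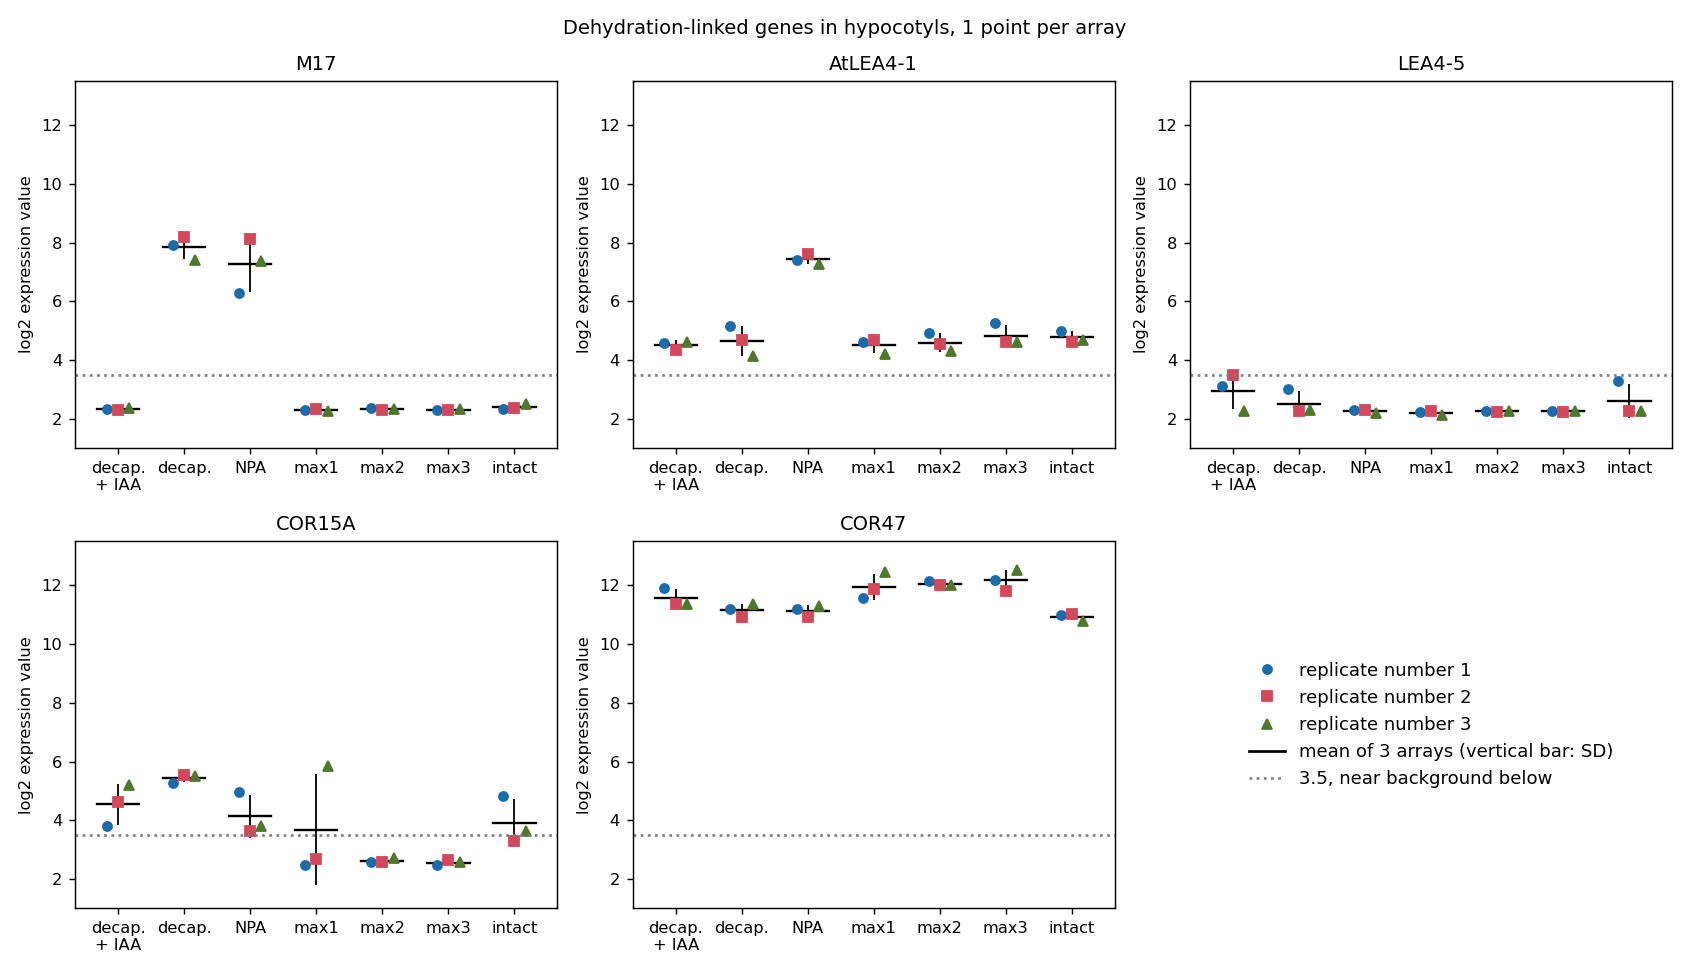
Log2 expression value (vertical axis) of the 5 genes in 7 groups of 3 arrays (horizontal axis); points are single arrays with the symbol giving the replicate number, horizontal lines are group means, vertical bars are SD, and the dotted line marks 3.5. M17 is high in decapitated and NPA plants, AtLEA4-1 in NPA plants, COR47 is raised in the 3 max mutants, COR15A spreads widely in max1 (SD 1.89) and little in max2 (SD 0.072), and LEA4-5 stays under the dotted line.

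AtLEA4-1 rose with NPA and was not called after decapitation. It read 7.40, 7.61 and 7.28 in the NPA arrays, against 5.01, 4.62 and 4.69 in the intact arrays. The NPA arrays lay above every array of the other 6 groups, the highest of which read 5.26 in max3. NPA against intact gave 2.66 ± 0.24 (adjusted p = 7.5e-07), a 6.32-fold difference on the linear scale of these values.

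Decapitated arrays read 5.17, 4.67 and 4.14 for AtLEA4-1, around the intact values. Decapitated against intact gave -0.11 ± 0.24 (95% interval -0.63 to 0.41, adjusted p = 0.762). The direct comparison of NPA with decapitation gave 2.77 ± 0.24 (adjusted p = 3.0e-05), the 15th highest difference of all probe sets in a comparison in which few changed. This call was lost in a fit of only those 6 arrays (adjusted p = 0.0860). Within replicate numbers 1, 2 and 3, treated together per the labels, NPA lay above decapitation by 2.22, 2.94 and 3.15.

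Decapitated plants given IAA read 4.59, 4.33 and 4.62 for AtLEA4-1, and NPA against IAA gave 2.92 ± 0.24 (adjusted p = 3.9e-07). Group means were 4.50 in max1, 4.60 in max2 and 4.82 in max3, against 4.77 in intact plants. Their differences from intact were -0.27, -0.17 and 0.05 ± 0.24 for max1, max2 and max3, and none was called. Apart from NPA, the 6 other groups had means from 4.50 to 4.82 and each overlapped the next in order.

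M17 and AtLEA4-1 were the members called in NPA against intact, 2 of 5, in a comparison in which 27.8% of all probe sets were called. In decapitated against intact 1 of 5 members was called (M17), where 26.2% of all probe sets were called, and in IAA against decapitated again 1 (M17), against 22.9%. In NPA against decapitated 1 of 5 was called (AtLEA4-1), against 2.35%, and in NPA against IAA both M17 and AtLEA4-1, against 35.6%. No member was called in IAA against intact, where 8.67% of all probe sets were called, and where COR47 had an unadjusted p of 0.0129. With so many probe sets changed by these treatments, 1 or 2 calls among 5 genes lie near the share of all probe sets, apart from NPA against decapitation, and the genes were chosen with results of these data known.

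**Figure D2:**
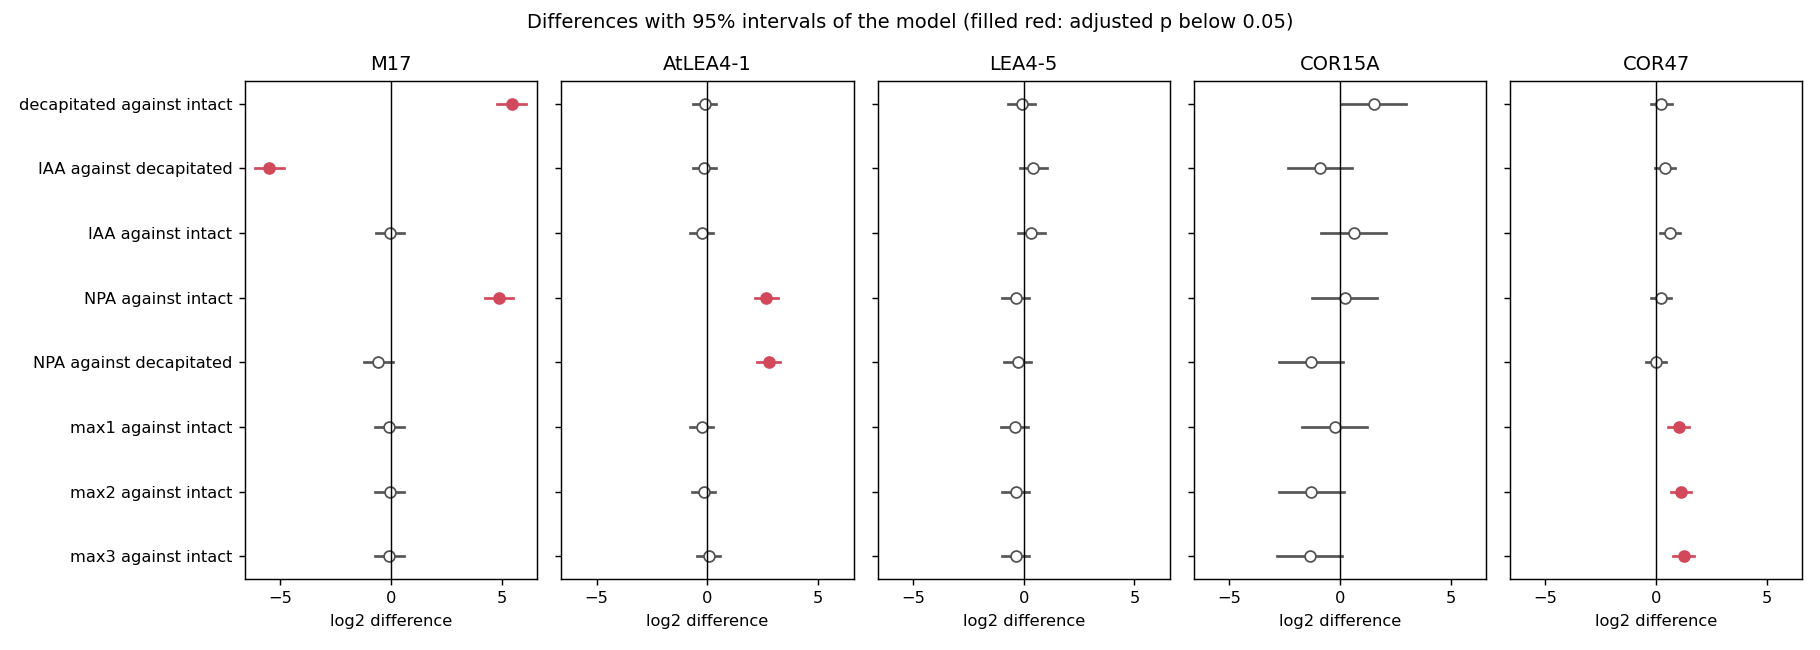
Log2 differences (horizontal axis) of the 5 genes in 8 comparisons (rows), as the first group minus the second; points are the differences, lines are 95% intervals of the limma model, and filled red points have an adjusted p below 0.05. M17 moves by 5.44 with decapitation and by -5.50 when IAA is added, and the interval of COR15A is the widest in each row.

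COR47 was higher in all 3 max mutants. It read 11.56, 11.86 and 12.44 in max1, 12.14, 12.00 and 12.02 in max2, and 12.20, 11.80 and 12.51 in max3, against 11.00, 11.02 and 10.79 in intact plants. The 9 mutant arrays all lay above the 3 intact arrays. The differences from intact were 1.02 ± 0.22 in max1 (adjusted p = 0.0161), 1.12 ± 0.22 in max2 (adjusted p = 0.00986) and 1.23 ± 0.22 in max3 (adjusted p = 0.00854), or 2.03-fold, 2.17-fold and 2.35-fold on the linear scale. The mean of the mutants lay 1.12 ± 0.18 above intact (adjusted p = 0.00151).

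COR47 was the called member, 1 of 5, in each of these comparisons, where 3.74%, 3.12% and 2.02% of all probe sets were called in max1, max2 and max3, and 5.28% in the mean of the mutants. The call in max1 was lost without max1 replicate 3 (0.77, adjusted p = 0.0765), without intact replicate 3 (0.94, adjusted p = 0.0656) and in a fit of only max1 and intact (adjusted p = 0.162). The call in max3 was lost in a fit of only max3 and intact (adjusted p = 0.0953), while that in max2 and in the mean of the mutants passed in each alternative. Within replicate numbers 1, 2 and 3 the mean of the mutants lay above intact by 0.97, 0.86 and 1.54.

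The mutants were not told apart by COR47. Max2, the response mutant, differed from the mean of the synthesis mutants max1 and max3 by -0.01 ± 0.19 (95% interval -0.41 to 0.40), and max1 differed from max3 by -0.22 ± 0.22 (95% interval -0.68 to 0.25). No member was called in either comparison, in which 0.171% and 0.361% of all probe sets were called. The lowest unadjusted p of a member was 0.417 (COR15A) in the first and 0.124 (COR15A) in the second.

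No treatment of wild-type plants passed the test for COR47. It read 11.20, 10.93 and 11.35 in decapitated plants, 11.20, 10.93 and 11.29 with NPA and 11.92, 11.36 and 11.37 after decapitation with IAA. Differences from intact were 0.23 ± 0.22 after decapitation (adjusted p = 0.491), 0.21 ± 0.22 with NPA (adjusted p = 0.486) and 0.62 ± 0.22 with IAA (adjusted p = 0.105). The IAA arrays lay above the intact arrays without passing the test. Against decapitated plants the mean of the mutants was 0.90 ± 0.18 higher (adjusted p = 9.2e-04). In order of group mean COR47 ran from max3, max2 and max1 through IAA to decapitated, NPA and intact plants, and the only neighbours in that order that did not overlap were IAA and decapitated plants.

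COR15A had the largest SE of the 5 members in the model, and its spread differed between groups, with an SD of 1.89 in max1 and 0.81 in intact plants but 0.15 in decapitated plants and 0.072 in max2. It read 5.27, 5.55 and 5.52 in decapitated plants, 3.80, 4.61 and 5.21 with IAA, 4.98, 3.65 and 3.80 with NPA, and 4.83, 3.29 and 3.64 in intact plants. The decapitated arrays all lay above the intact arrays. The difference of decapitated from intact plants was 1.53 ± 0.69 (95% interval 0.06 to 2.99), which did not pass the test (unadjusted p = 0.0418, adjusted p = 0.127). IAA against decapitated gave -0.91 ± 0.69 (adjusted p = 0.327), or -0.54 without IAA replicate 1. NPA against intact gave 0.22 ± 0.69 (adjusted p = 0.831), with no settled direction, since it was -0.20 without NPA replicate 1 and 0.67 without intact replicate 1. NPA against decapitated gave -1.31 ± 0.69 (95% interval -2.77 to 0.15), not called (adjusted p = 0.450), although the groups did not overlap and NPA was lower in 3 of 3 replicate numbers.

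In max2 and max3 COR15A lay near background in all 6 arrays, at 2.59, 2.58 and 2.71 in max2 and at 2.46, 2.63 and 2.59 in max3, under each of the intact arrays. The differences from intact, -1.30 ± 0.69 in max2 (adjusted p = 0.510) and -1.36 ± 0.69 in max3 (adjusted p = 0.410), did not pass the test. In max1 replicates 1 and 2 read 2.49 and 2.70 and replicate 3 read 5.86, the highest COR15A value of all 21 arrays. The mean of the mutants stood at -0.97 ± 0.56 against intact (adjusted p = 0.411). Without max1 replicate 3 it stood at -1.33 and was called lower (adjusted p = 0.0381).

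The mean of the mutants was lower than decapitated plants in COR15A, by -2.49 ± 0.56 (adjusted p = 0.00241), and the call passed in each alternative, with an adjusted p of at most 0.0126. The ranges overlapped through max1 replicate 3 alone. This comparison called 3 of 5 members, M17 and COR15A lower and COR47 higher, and 47.3% of all probe sets. COR15A and COR47, the 2 cold-regulated members, thus differed in sign in the mean of the mutants against decapitation.

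LEA4-5 gave no reading above 3.5 in any of the 21 arrays. Its lowest array read 2.13 (max1) and its highest 3.48 (IAA replicate 2). In IAA plants it read 3.10, 3.48 and 2.26, in decapitated plants 3.00, 2.26 and 2.31, and in intact plants 3.29, 2.26 and 2.28. The arrays with NPA and the max mutants lay between 2.13 and 2.29. None of 13 comparisons was called in limma. NPA against IAA was the 1 comparison with an unadjusted p below 0.05 (-0.69 ± 0.29, unadjusted p = 0.0286, adjusted p = 0.0702) and was called with the replicate number as a block (adjusted p = 0.0471) and without IAA replicate 3 (-1.03, adjusted p = 0.0107). At this signal, changes of LEA4-5 within the background range can go undetected, and its differences do not give the ratio of transcript amounts.

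The LEA family was described from a list of 46 other LEA genes, 30 of them with a probe set assigned to no other gene. In 20 of the 30 every array lay below 3.5. The 10 that reached 3.5 in some array included LTI30 (AT3G50970), a membrane-binding dehydrin, DI21 (AT4G15910), a drought-induced gene, AT1G54410, a small histidine-rich dehydrin that the reference also lists as HIRD11, and AT2G46140 and AT2G44060, which it lists as LEA27 and LEA26. Subtracting array medians shifted the difference of every probe set by 0.11 in decapitated and 0.13 in NPA plants against intact.

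After decapitation 2 of the 30 were lower than in intact plants and none higher, or 6.67% called, against 26.2% of all probe sets. The median difference was 0.02, beside 0.03 over all probe sets. With array medians subtracted, which shifted each difference by 0.11, 12 were higher and 1 lower. Such a shift can carry genes near background past the threshold. M10, below 3.5 in all arrays, was called higher in this way (0.19, adjusted p = 0.0176). AT2G46140 read 3.75, 5.04 and 5.22 in decapitated plants against 7.07, 6.91 and 6.42 in intact plants, a difference of -2.13 ± 0.57 (adjusted p = 0.0106). This call was lost without decapitated replicate 1 (-1.67, adjusted p = 0.0609). The other was AT2G44060 (-0.31 ± 0.08, adjusted p = 0.00955), lost with array medians subtracted (adjusted p = 0.0927) and without decapitated replicate 1 (adjusted p = 0.0565).

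With NPA 3 of the 30 were lower and 2 higher than in intact plants, or 16.7% called, against 27.8% of all probe sets. With array medians subtracted, which shifted each difference by 0.13, 18 were higher. Among these were M10 and COR15B, which stayed below 3.5 in all arrays. The median difference was 0.04, as over all probe sets. AT2G46140 read 3.40, 3.33 and 4.06 with NPA, below each intact array, and differed by -3.20 ± 0.57 (adjusted p = 5.0e-04). AT2G44060 differed by -0.59 ± 0.08 (adjusted p = 5.2e-05) and AT1G54410 by -0.56 ± 0.18 (adjusted p = 0.0277). AT2G23120 was higher by 0.93 ± 0.30 (adjusted p = 0.0285) and AT5G44310 by 0.37 ± 0.13 (adjusted p = 0.0433, or 0.0537 with the replicate block). AT5G44310 lay close to background, with means of 3.64 with NPA and 3.27 in intact plants. AT1G54410, AT2G23120 and AT5G44310 each lost the call in several alternatives, among them the one without NPA replicate 2 (adjusted p = 0.144, 0.0552 and 0.219).

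AT2G46140 thus ran opposite to M17 in the same arrays, and after decapitation with IAA it read 7.49, 7.85 and 7.70, which was 3.01 ± 0.57 above decapitation (adjusted p = 0.00111). IAA against decapitation called 2 of the 30 higher and 1 lower (1 and 6 with array medians subtracted), the lower one being M10 by -0.11 within the background range. These were 10.0% of the list, against 22.9% of all probe sets. NPA against IAA called 9 higher and 3 lower, or 40.0% of the list, near the 35.6% of all probe sets. Of the 9 higher ones 8 stayed below 3.5 in all arrays and differed by at most 0.33. Against intact, IAA called none of the 30 in limma (5 at an unadjusted p below 0.05), against 8.67% of all probe sets. With the replicate block in limma 2 were higher, AT3G02480 (2.19, adjusted p = 0.0275) and DI21 (0.58, adjusted p = 0.0387). AT3G02480 had means of 7.26 with IAA (SD 1.39) and 5.07 in intact plants (SD 1.48). NPA against decapitation called none of the 30 (1 at an unadjusted p below 0.05), against 2.35% of all probe sets.

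In the max mutants the dehydrin gene LTI30 moved in the direction of COR47. It read 9.87, 11.51 and 12.55 in max1, 9.84, 12.15 and 11.58 in max2, and 12.30, 11.32 and 12.50 in max3, against 9.40, 10.14 and 7.76 in intact plants. The groups overlapped in max1 and max2, and neither these (2.21 and 2.09 ± 0.80) nor max3 (2.94 ± 0.80, adjusted p = 0.0745) passed the test. The mean of the 3 mutants passed it, at 2.41 ± 0.65 (adjusted p = 0.0436), the 56th highest difference of all probe sets. This call was lost in 10 of 20 alternatives, with an adjusted p from 0.0211 to 0.256, the highest without intact replicate 3. LTI30 was the 1 called gene of the 30 in the mean of the mutants, or 3.33%, near the 5.28% of all probe sets. None of the 30 was called in max1, max2 or max3, where 3.74%, 3.12% and 2.02% of all probe sets were called and 4, 3 and 4 of the 30 had an unadjusted p below 0.05. Against decapitated plants the mean of the mutants was 2.57 ± 0.65 higher in LTI30 (adjusted p = 0.00568), and 4 of the 30 were called higher and 9 lower, or 43.3%, near the 47.3% of all probe sets. Of the 9 lower ones 8 stayed below 3.5 in all arrays and differed by at most 0.19. Subtracting array medians turned these counts into 2 and 22.

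**Figure D3:**
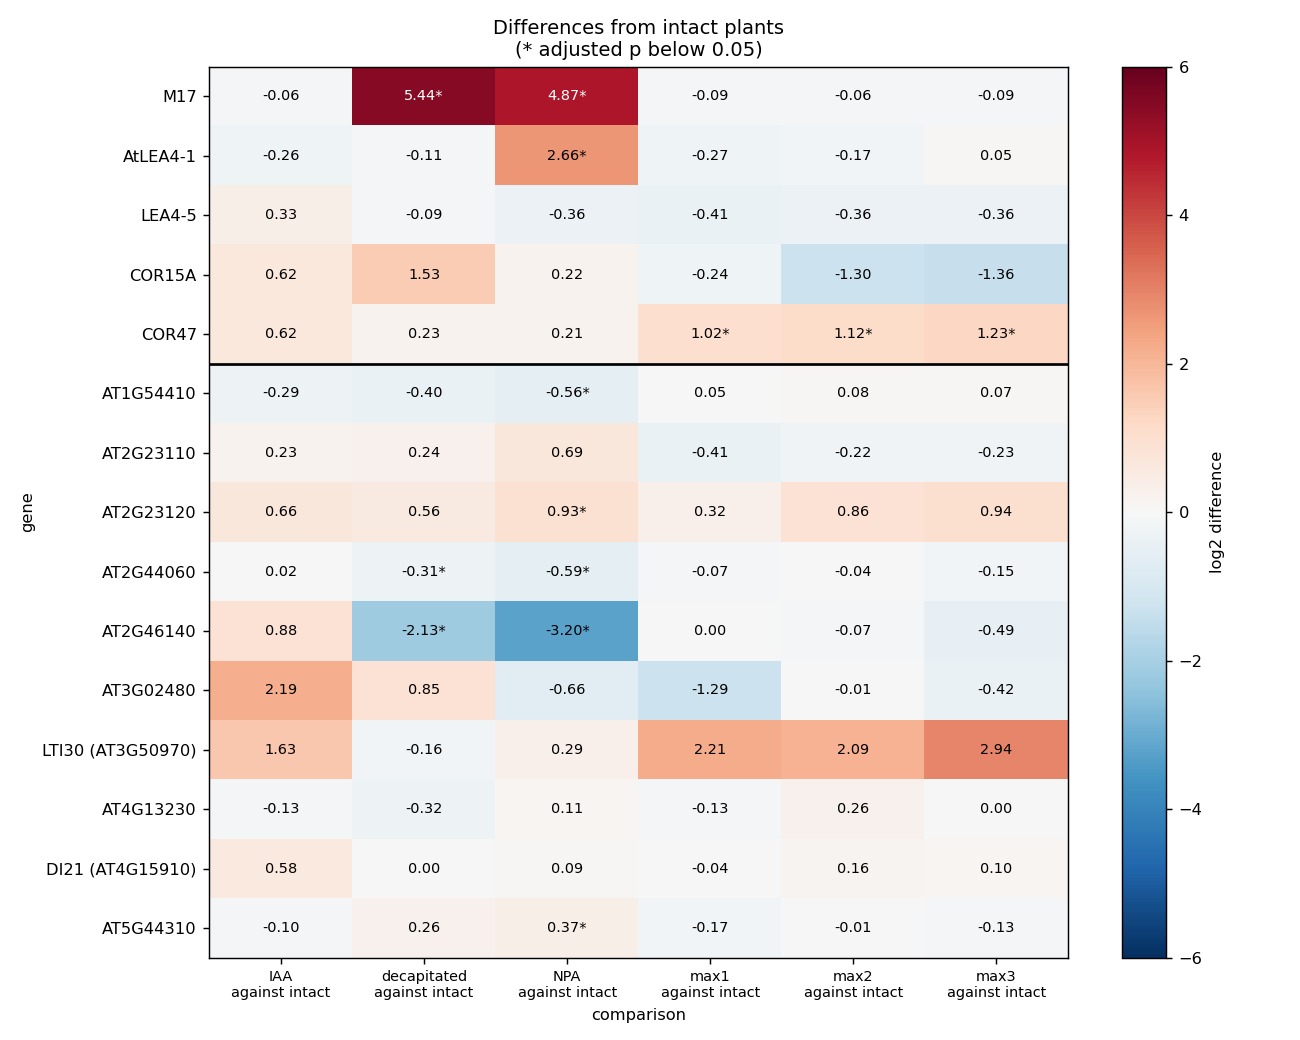
Log2 differences from intact plants (colour and printed number) of the 5 members (above the line) and the 10 other LEA genes that reached 3.5 in some array (below it), in 6 comparisons (columns); an asterisk marks an adjusted p below 0.05 in limma. M17 and AT2G46140 carry the largest numbers of opposite sign under decapitation and NPA, and COR47 and LTI30 are positive in the 3 mutant columns.

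Genes beside the members in the reference order were read where a probe set named them alone. M10, the next protein-coding gene after M17 in the reference and also a LEA gene, had group means from 2.34 to 2.46, all near background. COR15B, next to COR15A and a close relative of it, had group means from 2.69 to 3.02, which also lie under 3.5. ERD10, the dehydrin gene next to COR47, was not analysed here. AT2G41250, on the other side of M17, had group means of 10.82 in decapitated and 10.55 in NPA plants, against 10.02 in intact plants, and 9.32 in decapitated plants given IAA. Its means in max1, max2 and max3 were 9.52, 9.30 and 9.43, also under the intact mean.

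Among 3137 other probe sets that name 1 gene and whose group means span at least 1, the likeness of each pattern to that of a member was described by Pearson's r over the 7 group means. For M17 r was over 0.99 for 30 of them, and the nearest 5 were EC1.5 (AT5G64720), AT4G01140, AT1G75770, AT4G35725 and AT4G37220. AT4G37220 read 5.60, 5.94 and 5.53 in decapitated and 6.20, 4.98 and 5.86 in NPA plants, against 1.97, 1.98 and 2.00 in intact plants. AT1G75770 was less even, at 3.71, 3.45 and 2.06 in decapitated and 4.65, 2.17 and 2.13 in NPA plants. Its r with M17 over the 21 arrays was 0.60, so a high r over group means can hide uneven arrays. For AtLEA4-1 r was over 0.99 for 2, AT2G15880 and AT5G59990. AT5G59990 read 6.13, 6.53 and 4.29 with NPA and from 1.96 to 1.99 in intact plants. The other 3 of its nearest 5 were AT1G49570, AT3G57700 and the mitochondrial gene nad5.

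For COR47 no r exceeded 0.99. The nearest were AT4G28140 and LTI30, both at 0.97, followed by AT5G40470, AT2G30840 and AT3G16530. AT4G28140 read 2.63, 3.42 and 5.82 in max1, 4.29, 4.54 and 3.23 in max2, and 4.02, 4.08 and 4.90 in max3, against 2.06, 2.42 and 2.66 in intact plants. Max1 replicate 3, the array with the highest COR15A value, was also the highest array of all for AT4G28140 and LTI30, and the second-highest for COR47. For COR15A the nearest 5 were AT4G38010, AT4G37560, AT4G02220, AT4G38100 and AT5G63000, with r from 0.92 to 0.97. For LEA4-5, whose group means span 0.74 near background, they were AT1G07070, AT2G43660, AT5G59240, AT5G08565 and AT5G02050. These likenesses rest on 7 points and changed with the measure of likeness.

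**Figure D4:**
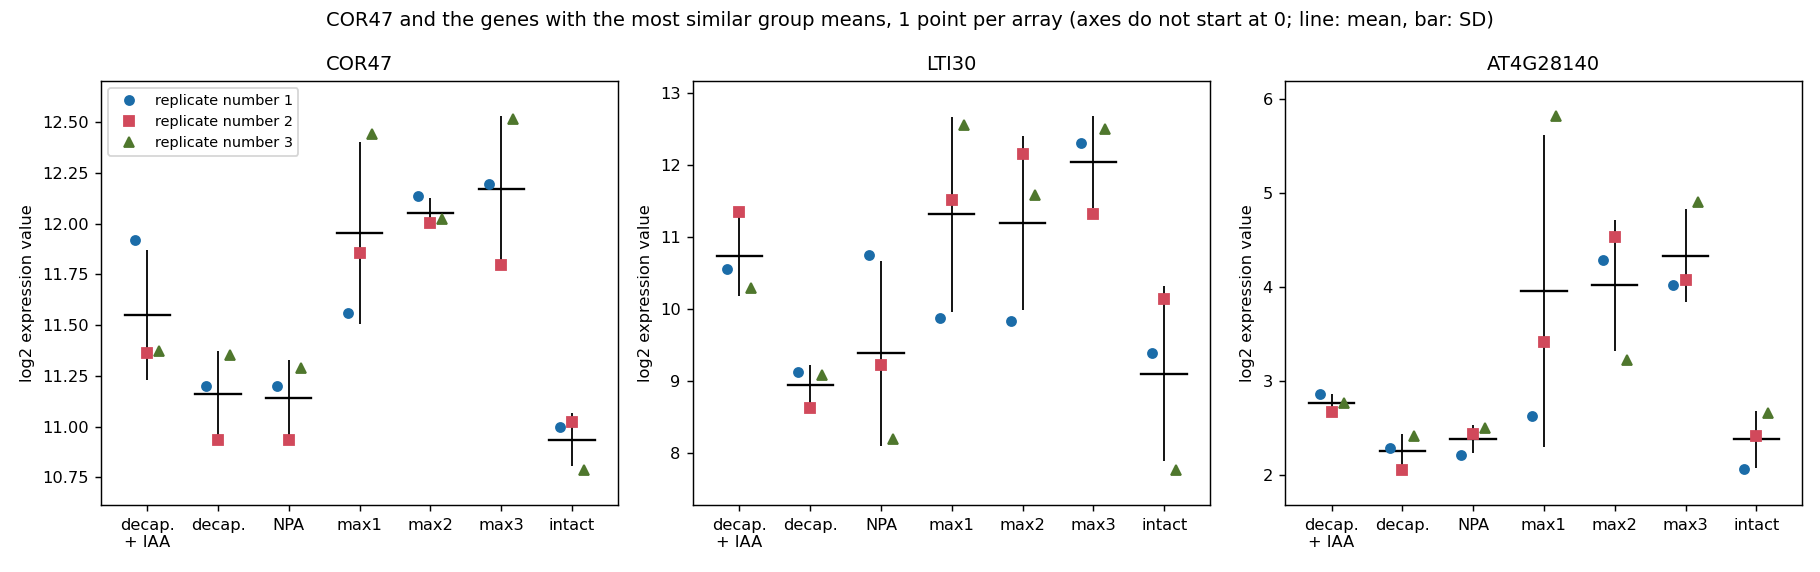
Log2 expression value (vertical axes, which differ and do not start at 0) of COR47, LTI30 and AT4G28140 in 7 groups; points are single arrays, lines are means and bars are SD of 3 arrays. The group means of the 3 genes are highest in the max mutants. LTI30 and AT4G28140 are shown because their group means were most like those of COR47, so this likeness follows from the choice. Max1 replicate 3 reads 12.55 for LTI30 and 5.82 for AT4G28140.

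Few other genes of the ABA and dehydration response could be read. None of 28 ABA signalling genes, 12 genes of ABA synthesis and breakdown and 25 other dehydration and ABA response genes had a probe set that named the gene alone, and 1 of 14 cold and dehydration regulators had one, STZ, a zinc-finger repressor gene induced by stress. STZ read 9.18, 9.64 and 8.53 with NPA, against 8.29, 7.20 and 7.43 in intact plants (1.48 ± 0.53, adjusted p = 0.0504), which missed the threshold and passed it in 6 alternatives, among them array medians subtracted (adjusted p = 0.0185). After decapitation it differed by 0.43 ± 0.53 and in the mean of the mutants by 1.11 ± 0.43 (adjusted p = 0.179). Of 14 seed storage and oil body genes 1 was measured, AT3G01570, whose group means lay between 1.78 and 2.05.

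Markers of other tissues were also sparse, with 2 of 5 leaf, 1 of 4 shoot apex, 1 of 4 root and 0 of 5 cambium and xylem genes measured, so that the hypocotyl label could not be checked against markers of its own. The shoot apex marker CLV3 and the root marker EXPA7 had group means of at most 2.04 and 1.87. The leaf marker RCA read 13.58, 13.82 and 12.61 in decapitated plants, against 12.66, 12.53 and 11.99 in intact plants (0.94 ± 0.42, adjusted p = 0.122), and was called with the replicate block (adjusted p = 0.0161) and with array medians subtracted (adjusted p = 0.0454). With NPA it read 12.78, 13.46 and 12.65 (0.57 ± 0.42 against intact, adjusted p = 0.318). After decapitation with IAA it read 12.36, 12.99 and 12.02 (-0.88 ± 0.42 against decapitated, adjusted p = 0.134), which was called with the replicate block (adjusted p = 0.0267). Among wild-type groups, RCA means were thus higher in decapitated and NPA plants than in IAA and intact plants, as for M17. This likeness did not extend to the max mutants, where M17 stayed near background. RCA means were 12.93 in max1 and 12.59 in max2, against 12.96 with NPA and 12.39 in intact plants. The max3 arrays read 13.86, 12.77 and 12.38, with a mean above that of NPA. The range of each mutant overlapped that of intact plants. The leaf marker LHCB4.2 differed by -0.12 ± 0.26 in decapitated against intact plants, and its group means were 12.27 with NPA and 12.31 in intact plants. The part of tissue make-up in the rise of M17 was not tested.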

How the data were processed

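Per the labels, RNA of 3 biological replicates per group was labelled by the Affymetrix protocol. The authors deposited normalized log2 values. Per the submitters' processing notes RMA, GCRMA and R 3.2.2 were used, and the sources used here do not give the role of each. These log2 values were used without further scaling or filtering. Of 22810 probe sets 64 controls were left out. The probe annotation named 1 gene for 13513 of those tested, several for 503 and none for 8730, and locus codes were matched for 13436 through the TAIR10.1 gene table. No coordinates are given, since the files name no build, and no gene or probe sequences were used here.

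The tests used limma 3.58.1 in R 4.3.3 (group means on 21 arrays, moderated variances with 14 residual and 1.03 prior degrees of freedom, two-sided, Benjamini-Hochberg within each of 13 comparisons). The method was tested on simulated data in which the noise of each array was independent. That simulation left out the pairing of arrays by replicate number, so it cannot show how the fit does with paired arrays. Arrays have no read depth, and precision is limited by having 3 arrays a group. The members and gene lists were chosen with earlier results of these data known. Named genes were the 5 members, up to 4 called genes of a list per comparison (all of a list with at most 6 measured), and the 5 probe sets most like each member. AT5G44310 with NPA, AT3G02480 and DI21 with IAA, and AT2G41250 fall outside this rule and were chosen after their values were seen.

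The labels say that arrays of one replicate number were treated together, so the numbers pair the arrays. Residuals of arrays with the same number had a median correlation of 0.361, and those with different numbers -0.123. Alternatives were the replicate block, only the groups compared, array medians subtracted, a second quantile normalization, leaving out probe sets of mean below 3.5, weights for array quality, a robust fit with an intensity trend, a change of at least 1, and leaving out each array.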

Additional observations from a re-analysis of the deposited data

Results flagged for a closer look

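Between NPA and decapitation, AtLEA4-1 was the 1 called member. The test of the difference between NPA and decapitation gave 2.77 ± 0.24 (limma adjusted p = 3.0e-05), with NPA higher in 3 of 3 replicate numbers. The arrays read 7.40, 7.61 and 7.28 with NPA and 5.17, 4.67 and 4.14 after decapitation. The call was lost in a fit of only these 6 arrays (adjusted p = 0.0860). COR15A also lay apart, at -1.31 ± 0.69, and was not called (adjusted p = 0.450).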

How the results depend on the processing

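Of 972 alternatives over 65 results (5 genes in 13 comparisons), 962 kept the direction of any call and the side of the threshold, 6 lost a call, 4 gained one and 0 reversed. Most of the 65 results were not called, and staying uncalled counts as kept, so the total says little about the calls. Of 13 comparisons, M17 and COR47 were each called in 5, AtLEA4-1 in 3, COR15A in 1 and LEA4-5 in 0. In a fit of only the groups compared, calls were lost for AtLEA4-1 in NPA against decapitated (2.77), COR47 in max1 (1.02) and COR47 in max3 (1.23). A required change of at least 1 removed COR47 in the mean of the mutants against decapitated (0.90). The replicate block raised LEA4-5 in NPA against IAA (-0.69) past the threshold and changed no other call of the 5 members. Over single arrays left out, M17 in NPA against decapitated ranged from -1.01 to -0.083, LEA4-5 in NPA against IAA from -1.03 to -0.43, COR47 in max1 against intact from 0.77 to 1.21, and COR15A in the mean of the mutants against intact from -1.33 to -0.51. Without a call under any of them, COR15A ranged from -0.20 to 0.67 in NPA against intact and from -1.24 to -0.54 in IAA against decapitated. LEA4-5 had no value once dim probe sets were left out. The cause was not tested.

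Counts over the 30 other LEA genes depended on scaling. Decapitation raised 0 and lowered 2 (12 and 1 with array medians subtracted). IAA against decapitated raised 2 and lowered 1 (1 and 6, and 0 lowered without dim probe sets). NPA raised 2 (18 with medians subtracted, 1 with the block or without dim probe sets). NPA against IAA raised 9 (18, and 0 without dim probe sets). IAA against intact raised 0 (2 with the block), max3 raised 0 (1 without dim probe sets), and the mean of the mutants against decapitated raised 4 and lowered 9 (2 and 22, and 0 lowered without dim probe sets). Each of these genes had 1 probe set, so averaging probe sets changed nothing. Of the 5 genes most like a member, Spearman's rho kept 0 for M17, AtLEA4-1 and LEA4-5 and 1 for COR15A and COR47. Pearson's r over 21 arrays kept 3 for AtLEA4-1, 2 for COR47 and 0 for the others.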
